A study of Mus musculus with 7 samples.

Results

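The miR-99/100 and miR-125 families were followed in mouse kidney on miRNA arrays through 5 mature miRNAs, mmu-miR-99a, mmu-miR-99b, mmu-miR-100, mmu-miR-125a-5p and mmu-miR-125b-5p, out of 696 miRNAs on the array. Their membership rests on their names alone, 3 by the miR-99/100 seed and 2 by the miR-125 seed, and each was read by 2 probes of 10 spots. Kidneys of male C57BL/6 mice that were 9 to 12 weeks old were collected 28 days after an operation on the left ureter, which was either tied off (unilateral ureteral obstruction) or exposed without a ligature (sham). 7 one-colour Agilent arrays of total kidney RNA were analysed, 4 labelled non-treated (replicates 1, 2, 3 and 4) and 3 labelled treated (replicates 1, 3 and 4). The labels describe both operations without saying which label stands for which, and the array titles carry a C for non-treated and an S for treated. Below, the arrays are called non-treated and treated by these labels alone. The study's methods give separate mice in each group, but the labels tie no array to a mouse, so p-values measure the spread between these arrays.

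MiRNAs are short RNAs that guide Argonaute proteins to messenger RNAs, mainly through the seed, bases 2 to 8 from the 5′ end, and the pairing lowers the output of the message. MiR-125 is the mammalian relative of lin-4, and both lin-4 and let-7 were found as timers of worm larval development. In mammals a miR-99/100 hairpin, a let-7 hairpin and a miR-125 hairpin lie together at 3 places in the genome, copies of 1 old cluster. The miR-99/100 family is known for repressing mTOR, the kinase of the growth pathway, and the miR-125 family for repressing Lin28, which blocks let-7 maturation, and for its effects in blood stem cells.

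The 5 mature sequences are shown because the comparisons turn on which seed and which locus a miRNA has. All 5 matched an entry of RefSeq (mouse GRCm38.p6), and capitals mark the seed.
miR-99a: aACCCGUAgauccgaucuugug
miR-99b: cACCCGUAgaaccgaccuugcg
miR-100: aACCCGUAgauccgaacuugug
miR-125a-5p: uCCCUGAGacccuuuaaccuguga
miR-125b-5p: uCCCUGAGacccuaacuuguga

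Counted from 1 at the 5′ end, miR-99a and miR-100 differ at 1 base, U16A. MiR-99b differs from miR-100 at 4 bases, C1A, A11U, C16A and C21U. MiR-125a-5p is 24 bases long and miR-125b-5p 22, and they share their first 13 and last 5 bases. The files used here pair the probes with miRNA names and not with probe sequences, so how far a probe for one member also binds its near-identical relative was not tested. The seed ACCCGUA belonged to 3 mature mouse miRNAs of the RefSeq table, all of them members. The seed CCCUGAG belonged to 5, of which only miR-351 was on the array besides the members, and it was detected on 0 of 7 arrays.

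MiR-100 lies at chr9:41531437-41531458 and the first of the hairpins of miR-125b at chr9:41581940-41581961, 50503 bases apart by the starts of the mature sequences. Both are spanned by Mir100hg, a long noncoding RNA gene that also spans the hairpin let-7a-2. MiR-99b lies at chr17:17830194-17830215 and miR-125a-5p at chr17:17830817-17830840, 623 bases apart with let-7e between them, and Spaca6, a protein-coding gene, spans all 3. MiR-99a lies at chr16:77598940-77598961, 732 bases from let-7c-1 and 47339 bases from the other hairpin of miR-125b at chr16:77646279-77646300, and no gene of the table other than the miRNA genes spans them. All of these lie on the plus strand, in GRCm38.p6, whereas the array files name mm9, so no coordinate was carried between builds. The mature miR-125b-5p is the same from both hairpins, and the array cannot tell the chromosome 9 copy from the chromosome 16 copy.

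By Agilent's detection call, a non-treated array showed 232 to 282 miRNAs and a treated array 193 to 214. Each array was scaled by its mean log2 signal over the 186 miRNAs that every array detected, which was 7.40, 7.52, 6.65 and 7.40 on the non-treated arrays and 6.05, 6.42 and 5.79 on the treated arrays. Non-treated replicate 3 therefore stood apart from its group, and the changes of the members and of the contrast of loci are also given without it. All arrays lay on 1 slide with 1 scan date, so no batch could be separated. Signals are given below as log2 of the scaled signal of a miRNA, and signals of different miRNAs are not set against each other as amounts, because their probes differ. In whole kidney RNA, fewer cells that hold a miRNA and less of it per cell cannot be told apart.

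All 5 members had a lower mean signal on the treated arrays, and 4 of them passed the test with groups that did not overlap. The falls of these 4 ran from 3.30-fold for miR-100 and 2.69-fold for miR-125b-5p to 1.62-fold for miR-99b and 1.19-fold for miR-125a-5p. MiR-99a, at 1.28-fold lower, did not pass the test. In limma across 236 miRNAs, those that all arrays of one group or of both detected, 30.9% were lower at an adjusted p below 0.01, 23.7% higher and 54.7% changed in either direction. The groups did not overlap for 66.1% of these miRNAs, so a gap between the groups is common here. Every change is given as treated minus non-treated arrays. This direction is opposite to the study's own table of obstructed over sham kidneys for miR-100, the only member listed there, and for the other miRNAs named below that it lists, among them let-7g, miR-192, miR-199a-3p and miR-223, so which label is the obstructed kidney is not settled.

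**Figure D1:**
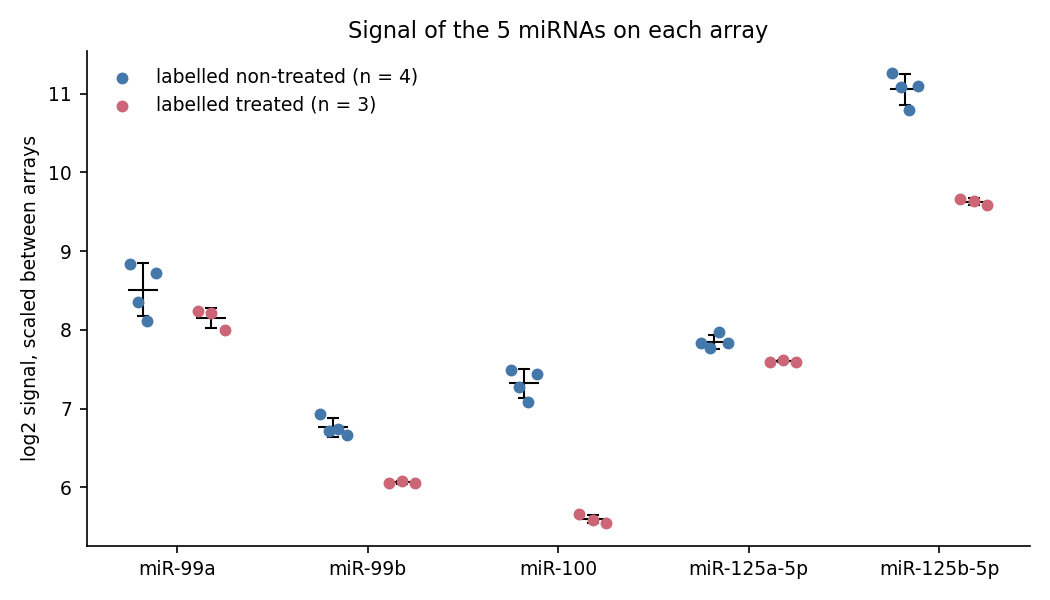
Log2 scaled signal (y axis) of each of the 5 miRNAs (x axis) on the 4 arrays labelled non-treated (blue) and the 3 labelled treated (red), each point an array, with the group mean as a black dash and ± 1 SD as bars. The groups overlap for miR-99a, whose means were 8.51 and 8.15, and not for the other 4 miRNAs.

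MiR-100 had log2 signals of 7.49, 7.27, 7.09 and 7.44 on the non-treated arrays and 5.66, 5.59 and 5.55 on the treated arrays. The lowest non-treated array lay above the highest treated array, and replicate 3 was the lowest of its group. The means were 7.32 ± 0.18 (SD, n = 4) and 5.60 ± 0.054 (SD, n = 3). The log2 fold change was -1.72 (standard error, SE, 0.10, 95% interval -1.97 to -1.47, limma adjusted p = 1.55e-05). Without non-treated replicate 3 it was -1.83 (limma adjusted p = 2.09e-05). With the normexp background correction and its offset of 50, on median spot signals in place of Agilent's own, it was -0.73 (limma adjusted p = 0.00135). Spots of the brighter miR-100 probe averaged 25.8, 31.7 and 19.9 on treated replicates 1, 3 and 4, below that offset. The correction and the offset were not tested apart.

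MiR-125b-5p, whose chromosome 9 hairpin shares the host gene Mir100hg with miR-100, fell as well. It had log2 signals of 11.26, 11.08, 10.79 and 11.09 on the non-treated arrays and 9.67, 9.63 and 9.58 on the treated arrays. Here too every non-treated array was above every treated array. The means were 11.05 ± 0.19 (SD, n = 4) and 9.63 ± 0.041 (SD, n = 3). The log2 fold change was -1.43 (SE 0.11, 95% interval -1.69 to -1.16, limma adjusted p = 4.34e-05), and -1.54 without non-treated replicate 3 (limma adjusted p = 2.09e-05). With normexp it was -1.81, further from 0 than that of miR-100. The order of these falls thus turned with normexp and its offset, and also with quantile normalization.

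MiR-99b, with the seed of miR-100 but from chromosome 17, had log2 signals of 6.93, 6.72, 6.74 and 6.66 on the non-treated arrays and 6.05, 6.08 and 6.06 on the treated arrays. The gap between the groups was wider than the range of the arrays within either group. The means were 6.76 ± 0.12 (SD, n = 4) and 6.06 ± 0.017 (SD, n = 3), a log2 fold change of -0.70 (SE 0.068, limma adjusted p = 0.000146), and -0.73 without non-treated replicate 3 (limma adjusted p = 0.000832). With normexp the change was -0.25 (limma adjusted p = 0.0021).

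MiR-125a-5p, the chromosome 17 neighbour of miR-99b, had log2 signals of 7.83, 7.77, 7.97 and 7.84 on the non-treated arrays and 7.59, 7.62 and 7.60 on the treated arrays. Replicate 3 was here the highest of its group, and the gap between the groups was narrow. The means were 7.85 ± 0.088 (SD, n = 4) and 7.60 ± 0.012 (SD, n = 3), a log2 fold change of -0.25 (SE 0.054, 95% interval -0.38 to -0.12, limma adjusted p = 0.00668). Without non-treated replicate 3 it was -0.23 (limma adjusted p = 0.00105). The call did not hold in 16 of 27 alternatives, among them leaving out non-treated replicate 1 (limma adjusted p = 0.0147) or 4 (0.0172) or treated replicate 1 (0.026), 3 (0.0201) or 4 (0.0438). With scaling by the 75th percentile of all miRNAs the change was 0.000202.

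MiR-99a, from the chromosome 16 cluster, had log2 signals of 8.84, 8.36, 8.11 and 8.73 on the non-treated arrays and 8.24, 8.21 and 8.004 on the treated arrays. Non-treated replicate 3 lay below 2 of the treated arrays, and the groups overlapped. The means were 8.51 ± 0.34 (SD, n = 4) and 8.15 ± 0.13 (SD, n = 3), with a log2 difference of -0.36 (SE 0.19, 95% interval -0.82 to 0.10, limma adjusted p = 0.14). Without non-treated replicate 3 the difference was -0.51 (limma adjusted p = 0.0315), still short of the threshold. The test was passed where arrays were scaled by the mean of all miRNAs (-0.87), by spike-in controls (-1.31) or not at all (-1.51).

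For single miRNAs, 3 arrays against 4 allow 35 splits, so the exact two-sided permutation test cannot give less than p = 0.0571. This smallest value was reached by miR-99b, miR-100, miR-125a-5p and miR-125b-5p, while miR-99a had an exact permutation p = 0.171.

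**Figure D2:**
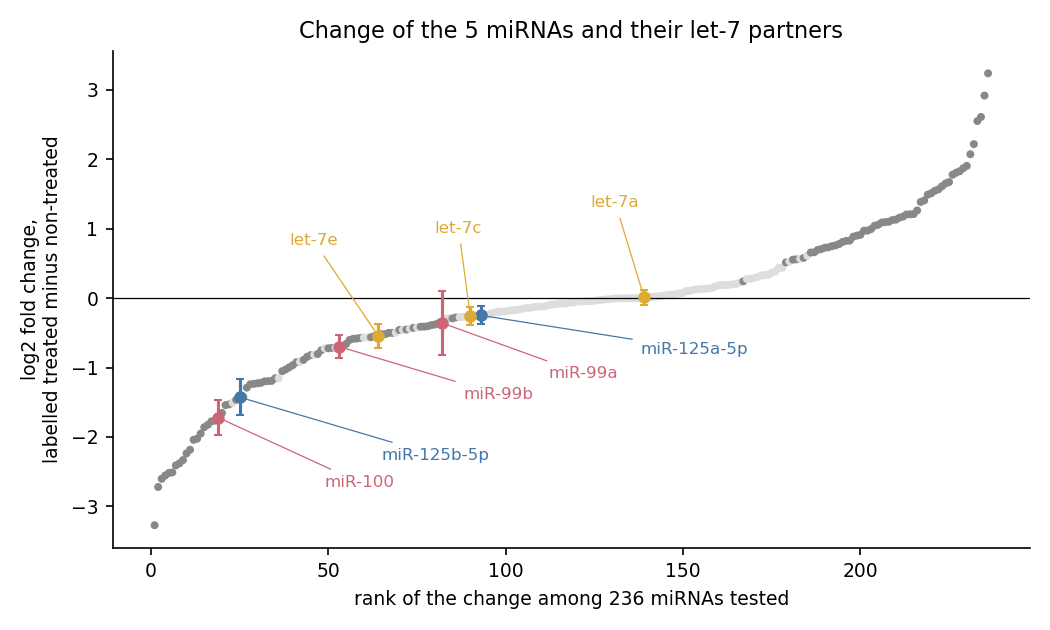
Log2 fold change, labelled treated minus labelled non-treated (y axis), of the 236 miRNAs tested in order of their change (x axis), with dark grey for those at a limma adjusted p below 0.01 and light grey for the rest. Coloured points with 95% intervals mark the miR-99/100 family (red), the miR-125 family (blue) and the let-7 miRNAs of their clusters (yellow), and miR-100 and miR-125b-5p lie lowest at -1.72 and -1.43.

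The position of no change depends on how the arrays are scaled, since the arrays differed in mean signal before scaling. Before scaling, miR-100 was at 8.14, 8.04, 6.99 and 8.10 on the non-treated arrays and 4.96, 5.27 and 4.59 on the treated arrays. The median log2 fold change of all tested miRNAs was -0.061 in the scaling used, -0.30 with the 75th percentile of detected miRNAs, -0.56 with the mean of all, -1.0 with spike-in probes and -1.20 with none. The 8 spike-in probes used averaged between 10.20 and 10.67 on the non-treated arrays and between 10.05 and 10.58 on the treated arrays. Relative to the median of all tested miRNAs, and over the 7 scalings, miR-100 lay between -1.68 and -1.47 and miR-125b-5p between -1.73 and -1.27. MiR-99b lay between -0.66 and -0.54 of that median, miR-99a between -0.43 and -0.20, and miR-125a-5p between -0.20 and -0.092. MiR-100 thus had the lowest value of the 5 under 6 of the 7 scalings, and miR-125b-5p under quantile normalization.

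**Figure D3:**
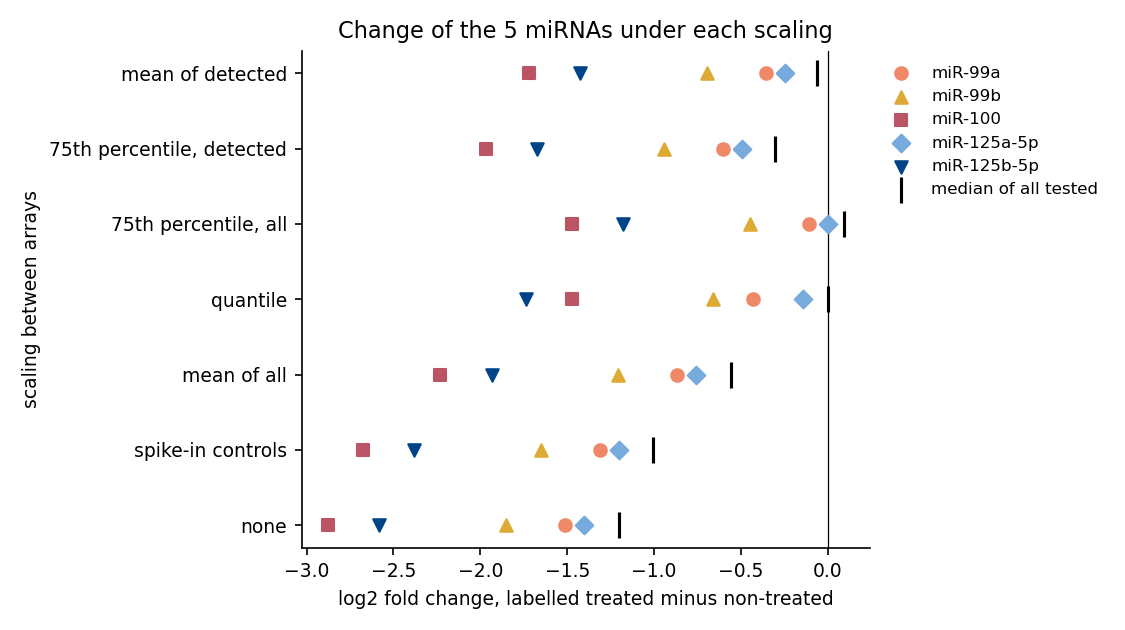
Log2 fold change of the 5 miRNAs, labelled treated minus labelled non-treated (x axis), under 7 ways of scaling the arrays (y axis), with a black bar for the median of all miRNAs tested. The points of a row shift together with the median, which runs from 0.092 with the 75th percentile of all miRNAs to -1.20 with no scaling.

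Ratios between miRNAs of the same array do not move when a whole array is scaled, so the families were compared in this way. They do depend on the background correction and on the offset that comes with normexp. The value with normexp is given where it turns the sign or moves a ratio by over 1.5 times. The first comparison asked whether the 2 seeds differed. The mean log2 signal of miR-125a-5p and miR-125b-5p minus that of miR-99a, miR-99b and miR-100 was 1.79, 1.97, 2.07 and 1.85 on the non-treated arrays and 1.98, 1.996 and 2.05 on the treated arrays. The groups overlapped, and the difference was 0.088 (SE 0.077). Its sign turned with quantile normalization (-0.083) and with normexp (-0.57).

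The second comparison set the locus of miR-100 and miR-125b against that of miR-99b and miR-125a, leaving miR-99a out. The mean of miR-100 and miR-125b-5p minus that of miR-99b and miR-125a-5p was 1.996, 1.93, 1.58 and 2.02 on the non-treated arrays and 0.84, 0.76 and 0.74 on the treated arrays. Every treated array lay below every non-treated array. The difference was -1.10 (SE 0.12), a 2.15-fold lower ratio, and -1.20 without non-treated replicate 3. The value of the ratio itself has no meaning as an amount, because it holds the brightness of different probes, and miR-125b-5p is read from its chromosome 16 hairpin as well.

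Within each seed, pairs from these loci were compared, and no pair could pass 0.05, since the smallest p of the design is higher. The log2 ratio of miR-99b to miR-100 was -0.56, -0.55, -0.35 and -0.78 on the non-treated arrays and 0.39, 0.49 and 0.51 on the treated arrays. It was thus 2.03-fold higher on the treated arrays (log2 difference 1.02, SE 0.11, exact permutation p = 0.0571, 0.0714 after Benjamini-Hochberg adjustment over the 10 pairs of members), and the log2 difference was 0.48 with normexp. The log2 ratio of miR-125a-5p to miR-125b-5p was -3.43, -3.31, -2.81 and -3.26 against -2.07, -2.01 and -1.99, a 2.26-fold difference (log2 difference 1.18, SE 0.16, exact permutation p = 0.0571, adjusted 0.0714). Both chromosome 17 miRNAs were thus higher relative to their seed relative on the treated arrays, with no overlap between the groups. Such gaps are common here, at 77.3% of all pairs of miRNAs detected on every array. The median size of the change was 0.97 over all those pairs, near that of these 2 ratios.

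The near-identical miR-99a and miR-100 also gave groups that did not overlap. Their log2 ratio was 1.35, 1.09, 1.03 and 1.29 on the non-treated arrays and 2.59, 2.62 and 2.45 on the treated arrays, a 2.58-fold difference (log2 difference 1.36, SE 0.10, exact permutation p = 0.0571, adjusted 0.0714). With normexp this log2 difference was 0.14. MiR-99a and miR-99b, by contrast, gave overlapping groups, with a log2 difference of 0.34 in their ratio (SE 0.19, exact permutation p = 0.114, adjusted 0.127). This difference turned to -0.33 with normexp and to -0.12 with the deposited table. The column of treated replicate 4 in that table holds an error estimate, and without this replicate the difference was 0.045.

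Of pairs from the same locus, those of chromosomes 9 and 17 gave smaller differences, whose sign depended on the processing. The log2 ratio of miR-100 to miR-125b-5p was -3.76, -3.81, -3.70 and -3.65 on the non-treated arrays and -4.01, -4.04 and -4.03 on the treated arrays. The groups did not overlap, but the difference was -0.30 (SE 0.042), or 1.23-fold, and it turned to 1.08 with normexp and 0.26 with quantile normalization. The log2 ratio of miR-99b to miR-125a-5p was -0.90, -1.05, -1.24 and -1.17 against -1.54, -1.53 and -1.54, a difference of -0.45 (SE 0.089), or 1.37-fold, which turned to 0.11 with normexp. Of the chromosome 16 pair, miR-99a was 2.10-fold higher relative to miR-125b-5p on the treated arrays (log2 difference 1.07, SE 0.12), with no overlap. All 3 had an exact permutation p = 0.0571, adjusted 0.0714.

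Across the sets, miR-100 was 2.78-fold lower relative to miR-125a-5p on the treated arrays (log2 difference -1.47, SE 0.15) and miR-99b 1.66-fold higher relative to miR-125b-5p (log2 difference 0.73, SE 0.10), both at the same smallest p. With normexp these log2 differences were -0.36 and 1.56. MiR-99a and miR-125a-5p overlapped, with a log2 difference of -0.11 in their ratio (SE 0.24, exact permutation p = 0.743), or -0.22 with normexp. In all, 8 of the 10 pairs of members had groups that did not overlap. Over all 17205 pairs of miRNAs detected on every array this share was 77.3%, so the count is near that background. The median size of the change of a log2 ratio was 0.88 over the 10 pairs and 0.97 over all pairs.

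**Figure D4:**
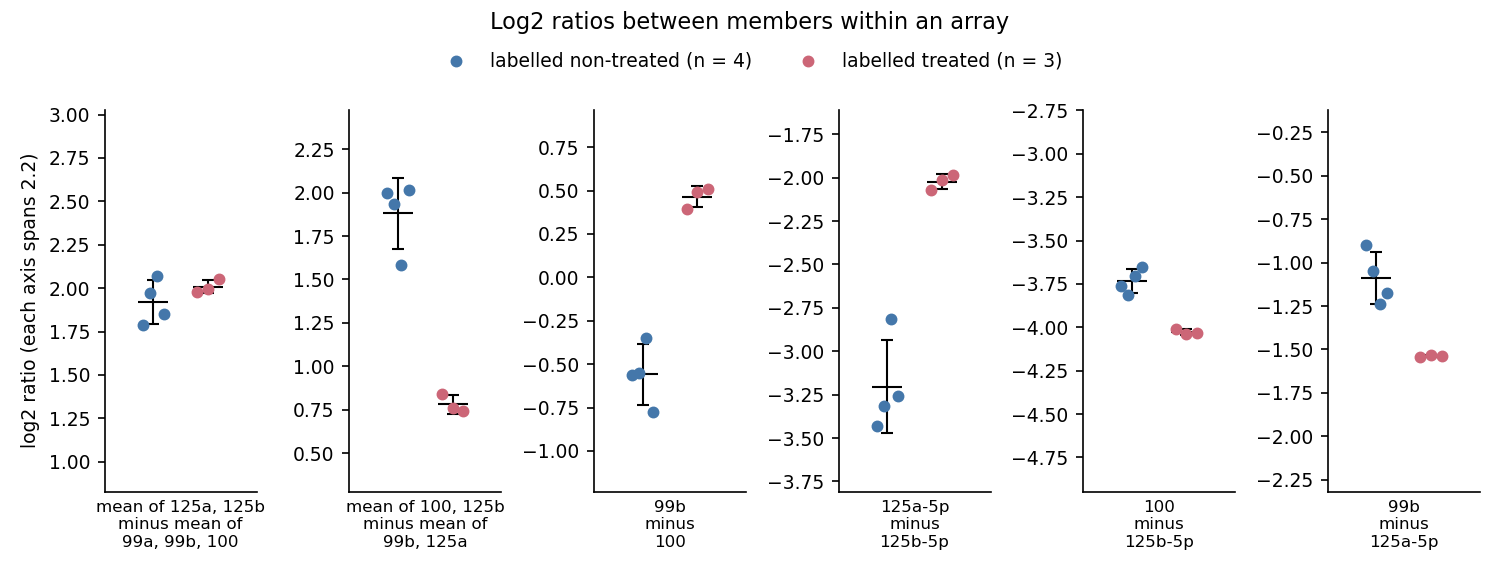
Log2 ratios within an array (y axes, each spanning 2.2 units) for the contrast of seeds, the contrast of loci and 4 pairs of miRNAs (one panel each), with each point an array, blue for labelled non-treated (n = 4) and red for labelled treated (n = 3), and black dashes and bars for the group mean ± 1 SD. The groups overlap in the contrast of seeds (difference 0.088) and are apart in the contrast of loci (difference -1.10).

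The let-7 miRNAs of the same clusters were compared as well, with let-7a as partner on chromosome 9, let-7c on chromosome 16 and let-7e on chromosome 17. The signals of let-7a and let-7c do not come from these loci alone, as given below. Let-7 miRNAs are known for repressing Ras genes, Hmga2 and Lin28. Their mature sequences are shown because they differ from each other by 1 or 2 bases, A19G from let-7a to let-7c, U9G from let-7a to let-7e, and both of these positions between let-7c and let-7e.
let-7a: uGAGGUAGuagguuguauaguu
let-7c: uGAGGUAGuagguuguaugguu
let-7e: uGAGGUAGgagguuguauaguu

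2 of these 3 fell on the treated arrays, against 30.9% of all tested miRNAs. Let-7e had a log2 fold change of -0.54 (SE 0.072, limma adjusted p = 0.000617) and let-7c of -0.25 (SE 0.052, limma adjusted p = 0.00507). The call of let-7c was lost in 15 of 27 alternatives, with -0.0067 under the 75th percentile of all, and that of let-7e in 4. Let-7a had log2 signals of 11.77, 11.85, 11.73 and 11.76 on the non-treated arrays and 11.73, 11.80 and 11.85 on the treated arrays. Its groups overlapped, with a log2 difference of 0.013 (SE 0.046, 95% interval -0.098 to 0.12, limma adjusted p = 0.838), and this sign turned under 5 scalings or background settings and 2 other alternatives. Let-7a and let-7c also come from other hairpins, on chromosomes 13 and 15 in the RefSeq table, and their probes read all copies together. How far a probe for one let-7 miRNA also binds another was not tested.

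Relative to let-7a, miR-100 was 3.33-fold lower on the treated arrays (log2 difference -1.73, SE 0.12) and miR-125b-5p 2.71-fold lower (-1.44, SE 0.12), each without overlap. On chromosome 17 the ratio of miR-99b to let-7e overlapped between the groups (log2 difference -0.16, SE 0.087, exact permutation p = 0.229). The ratio of miR-125a-5p to let-7e was 1.22-fold higher on the treated arrays (log2 difference 0.29, SE 0.036), without overlap. On chromosome 16 the ratio of miR-99a to let-7c overlapped (log2 difference -0.10, SE 0.19, exact permutation p = 0.571). The ratio of miR-125b-5p to let-7c was 2.25-fold lower (log2 difference -1.17, SE 0.11), and each of the 4 ratios without overlap had an exact permutation p = 0.0571. With normexp the log2 differences were -0.17 for miR-100 to let-7a, 0.62 for miR-99b to let-7e, 0.51 for miR-125a-5p to let-7e and 0.24 for miR-99a to let-7c. These 6 ratios were computed besides the 10 pairs, and 4 of 6 without overlap is again no more than the 77.3% of all pairs.

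The other let-7 miRNAs, which lie outside these clusters, were mixed. Of 6 tested, let-7i fell (log2 fold change -1.23, SE 0.065, limma adjusted p = 9.24e-06), let-7g rose (0.66, SE 0.072, limma adjusted p = 0.000254) and 4 did not pass the test. Their median log2 fold change was 0.079, against -0.061 for all tested miRNAs. The rise of let-7g turned to -0.30 with spike-in scaling and -0.50 with no scaling.

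MiR-10a and miR-10b, whose 5′ ends resemble those of miR-99/100 and which lie in the Hox clusters, did not pass the test. MiR-10a had a log2 difference of -0.019 (SE 0.077, limma adjusted p = 0.862) and miR-10b of 0.071 (SE 0.078, limma adjusted p = 0.464). The sign of both turned under several alternatives.

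The opposite strands of the cluster hairpins were near or below the limit of detection. Of 13 names looked for, 6 were on the array. MiR-125b-1-3p, miR-125b-2-3p and let-7c-1* were detected on no array, and miR-99b* and let-7a-1* on 2 of the arrays labelled non-treated and none labelled treated. Of these, let-7a-1* belongs to the let-7a hairpin on chromosome 13, which lies outside the clusters. MiR-125a-3p was detected on 4 of 4 arrays labelled non-treated and 1 of 3 labelled treated. After scaling it lay at the floor of 2.75 on 3 of the arrays labelled non-treated and at 2.87 on replicate 3, against 3.42, 2.91 and 3.31 on the treated arrays. Its log2 difference of 0.44 (SE 0.12, limma adjusted p = 0.0182) did not pass the test and turned to -0.53 with no scaling and -0.33 with spike-in scaling, so it carries no direction here.

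The 2 probes of a member, of which one is brighter than the other, gave changes of the same sign. They were -0.35 and -0.37 for miR-99a, -0.67 and -0.70 for miR-99b, -0.29 and -0.24 for miR-125a-5p, and -1.40 and -1.43 for miR-125b-5p. The probes of miR-100 differed more, with -2.14 (SE 0.16) for the dimmer and -1.61 (SE 0.11) for the brighter. On the treated arrays 60%, 80% and 40% of the spots of the dimmer probe were well above background, so the size of its change is uncertain. All spots of the brightest probe of each member were well above background on every array, and the median SD of log2 signal over its spots ran from 0.22 to 0.30. None of the spots for miRNAs was saturated.

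**Figure D5:**
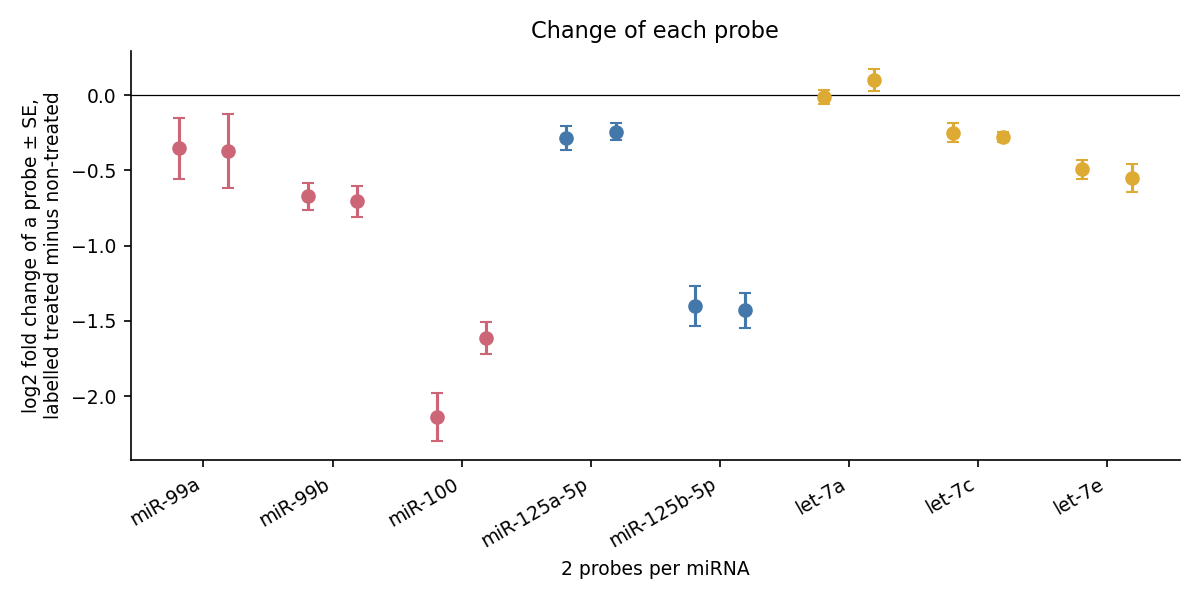
Log2 fold change, labelled treated minus labelled non-treated (y axis), of each of the 2 probes per miRNA (x axis), with bars for ± 1 standard error over 4 and 3 arrays, in red for the miR-99/100 family, blue for the miR-125 family and yellow for let-7. The probes of a member lie close together except for miR-100, at -2.14 and -1.61.

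For each member the miRNAs with the most similar pattern were found by the root mean square distance between their log2 signals over the 7 arrays, each centred on its own mean, among 181 other miRNAs detected on all arrays. MiR-155 was closest to miR-100 (0.13), followed by miR-350 (0.15) and miR-146a (0.18). For miR-125b-5p the order was miR-350 (0.12), miR-497 (0.15) and let-7i (0.16). All 5 of these fell on the treated arrays, by 1.15 for miR-497 to 2.02 for miR-146a on the log2 scale, and miR-155 and miR-146a are known from immune cells. With normexp miR-155 (-0.085) and miR-350 (-0.23) lost the call. MiR-99b lay closest to miR-34c (0.083), miR-27a (0.088) and miR-24 (0.098). MiR-125a-5p lay closest to miR-23b (0.056), miR-130a (0.071) and miR-25 (0.079). MiR-99a lay closest to miR-152 (0.15), miR-34b-5p (0.17) and miR-532-5p (0.18). All arrays share 1 slide and only 2 groups, so any miRNAs with a like difference between the groups come out close by this measure.

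MiRNAs known as markers of other cell types moved between the same arrays. The 6 miRNAs of the fibroblast and mesenchyme list, among them miR-199a-3p, miR-214 and miR-143, all fell on the treated arrays, with a median of -2.32. The log2 of their summed scaled signals lay between 11.54 and 11.74 on the non-treated arrays and between 9.40 and 9.44 on the treated arrays. The brightest miRNA weighs most in such a sum, and the sums of the other lists are given in the same way. The 6 white blood cell miRNAs, among them miR-142-3p and miR-223, fell as well, with a median of -1.89 and sums of 10.45 to 10.80 against 8.40 to 8.46. Both medians lie below the change of miR-100.

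Of 9 tubule epithelium miRNAs 8 were tested, and 5 rose, among them miR-192 and miR-200a, miR-204 fell and 2 did not pass the test. Their median was 0.87, with sums of 10.82 to 11.21 on the non-treated arrays and 12.29 to 12.36 on the treated arrays, and miR-215 was detected on no array. The 2 red blood cell miRNAs on the array, miR-144 and miR-451, both rose, with sums of 10.08 to 11.19 against 12.17 to 12.32. The 2 endothelial miRNAs, both strands of miR-126, did not pass the test (median 0.037). The part of these cell types in the changes of the members was not tested. All 8 tubule miRNAs tested were detected on all 7 arrays. The liver miRNA miR-122, the brain miRNA miR-124 and the muscle miRNA miR-206 were detected on none. MiR-9 was detected on 3 arrays. Of the muscle list miR-1 was detected on all arrays near the floor, with a log2 difference of -0.72, and miR-133b on 6, with -0.81, neither of which passed the test, and miR-133a on 3.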

How the data were processed

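Total RNA of mouse kidneys was labelled with Cy3 and hybridized to one-colour Agilent miRNA arrays. The deposited scanner files, made by the authors with Agilent Feature Extraction 10.7.3.1, give processed signal intensity per spot, background-subtracted. The labels name a RecoverAll kit for the RNA, whereas the study's methods name another kit for mouse tissue. Spots not called outliers were averaged per probe and probes summed per miRNA. Arrays were scaled to a common mean log2 signal over 186 miRNAs with a detection call on each of them, where the study's methods name the mean of each array without such a choice (the mean of all miRNAs was an alternative), with a floor of 6.71 on the scaled signal (log2 2.75). The label groups were compared with limma 3.58.1 (R 4.3.3) over 236 miRNAs, those that all arrays of one group or of both detected, with a Benjamini-Hochberg adjusted p below 0.01. The steps were tested on simulated data.

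Named are the members, the let-7 miRNAs and other strands of their clusters, let-7a-1* and other let-7 miRNAs. So are miRNAs that share a seed or resemble miR-99/100 at the 5′ end, and the 3 most similar miRNAs per member. Lists for tubule, fibroblast, white and red blood cells, endothelium, liver, muscle and brain were used as well. The members and lists were chosen with earlier results of these data known. A score over several members was given no p-value. Sequences and positions came from RefSeq tables of GRCm38.p6. Same-numbered arrays did not deviate together, so numbers were not taken as pairs. The number of arrays, 3 against 4, limits the precision. A deposited table of 1 intensity per probe was used only as an alternative. Other alternatives changed scaling, background, filter, floor, spots, probes and test, or left out an array.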

Additional observations from a re-analysis of the deposited data

Results flagged for a closer look

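Of 29 sets of 4 values on the arrays labelled non-treated, 6 held 1 array far from the other 3. Replicate 3 was that array in 5 of these 6 sets. Chance alone flags about 5% of independent sets, but these sets are not independent, so the count cannot be read against that rate. Several of the miRNAs were named because their pattern over all arrays was like that of a member. Before scaling, the miRNAs that every array detected averaged 6.65 on the log2 scale there, against 7.40 to 7.52 on the other 3. After scaling, miR-155 was at 5.48 (others 5.88 to 5.94), miR-350 at 5.90 (others 6.26 to 6.31) and miR-497 at 9.06 (others 9.53 to 9.56), each lower on replicate 3. These 3 are among the miRNAs closest in pattern to miR-100 or miR-125b-5p, which were also lowest on replicate 3 without standing as far apart. MiR-125a-3p was at 2.87 on replicate 3 with the other 3 at the floor of 2.75, so any value above the floor would have been flagged. MiR-24 was at 10.65 on replicate 2, with the others between 10.76 and 10.77.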

How the results depend on the processing

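MiR-100 and miR-125b-5p stayed past the threshold, in the same direction, in all 27 alternatives, with log2 fold changes from -2.88 to -0.73 and from -2.58 to -1.18. The contrast of loci stayed between -1.20 and -0.96 in 17 alternatives and between -1.20 and -1.06 with 1 array left out. MiR-99b lost its call with the deposited table (-0.75) and with that table without the column of treated replicate 4 (-0.56). MiR-99a passed with the mean of all miRNAs (-0.87), spike-ins (-1.31) and no scaling (-1.51). MiR-125a-5p lost its call with quantile normalization (-0.14), Agilent's summed signal (-0.20), only miRNAs detected on all arrays, all miRNAs tested, a floor of 1, Bonferroni adjustment or the methods' t-test with Benjamini-Hochberg (all -0.25), the deposited table (-0.48) and that table without treated replicate 4 (-0.26), and turned to 0.000202 with the 75th percentile taken over all. The contrast of seeds turned to -0.083 with quantile normalization and -0.57 with normexp, which adds an offset of 50 to the signals. Of the 10 ratios between members, 6 kept their sign in the 17 alternatives that alter ratios. The causes were not tested, other than that fewer or more miRNAs were tested or the adjustment was stricter by construction.

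Left-out arrays gave ranges of -0.51 to -0.25 for miR-99a, -0.73 to -0.64 for miR-99b, -1.83 to -1.66 for miR-100, -0.28 to -0.22 for miR-125a-5p, -1.54 to -1.36 for miR-125b-5p and 0.044 to 0.14 for the contrast of seeds. The replicate block called 94 miRNAs, and under it miR-125a-5p, at -0.28, lost its call and no other member did. Deviations of same-numbered arrays correlated at -0.055, -0.034 and 0.18, and only number 4 was closest to its own number.

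The number of miRNAs changed, 129, was 60 with normexp, 65 with Bonferroni adjustment and 112 to 140 with 1 array left out. With the deposited table it was 56. With that table without treated replicate 4, whose column there holds an error estimate, it was 93 of 239 tested. Of the 129, 56 were higher and 73 lower. The split was 50 and 95 with the 75th percentile of detected miRNAs, 36 and 121 with the mean of all, 73 and 46 with the 75th percentile of all, 61 and 57 with quantile normalization, 18 and 166 with spike-ins and 7 and 162 with no scaling. The methods' t-test passed 131 at its threshold and 118 after Benjamini-Hochberg.

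Signs turned as follows for other named miRNAs, none of which was called in both directions. With the 75th percentile of detected miRNAs, let-7a was at -0.23 and miR-10b at -0.18. With the mean of all miRNAs, they were at -0.50 and -0.44. With no scaling, let-7a was at -1.14, miR-10b at -1.08, let-7g at -0.50 and miR-125a-3p at -0.53. With spike-ins, these were at -0.94, -0.88, -0.30 and -0.33. With the 75th percentile over all, miR-10a was at 0.23, miR-532-5p at 0.055 and miR-130a at 0.12. With quantile normalization, miR-10b was at -0.11 and miR-532-5p at 0.023. With normexp, let-7a was at -0.56, miR-10b at -0.39, miR-34b-5p at 0.016, miR-532-5p at 0.035 and miR-34c at 0.012. With 1 array left out, let-7a ran from -0.027 to 0.046 and miR-10a from -0.068 to 0.072. MiR-10a was at 0.026 with Agilent's summed signal, 0.014 with the median over spots, 0.0297 with the brightest probe alone, 0.19 with the deposited table without treated replicate 4 and 0.0045 without non-treated replicate 3. Let-7a was at -0.011 with the brightest probe alone. With the deposited table, whose column of treated replicate 4 holds an error estimate, miR-10b was at -0.098, miR-532-5p at 0.056 and miR-34c at 0.011.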

Other observations

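The deposited table of 1981 values per array equals, within a relative tolerance of 1e-05, the processed signal of 1 spot per probe for 6 of the 7 arrays, with column medians from 0.28 to 0.53. The column of treated replicate 4 instead equals Agilent's error estimate of that signal for all 1981 values, with a median of 1.001, so the members' levels on that array can be read only from its scanner file.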
